A study of Mus musculus with 6 samples.

Results

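Transcripts of 9 mitophagy receptors and autophagy adaptors were measured in mouse brown adipose tissue (BAT). The genes were all rows whose symbol was Pink1, Bnip3, Bnip3l, Fundc1, Sqstm1, Optn, Map1lc3a, Map1lc3b or Gabarapl1, which gave 9 of 23282 rows. All 9 passed the filter on low counts, which left 12995 genes to test. RNA of the interscapular BAT depot came from male C57BL/6N mice at 5 weeks of age, 3 wild-type (WT) and 3 Letmd1 KO. The KO mice were homozygous for a whole-body knockout-first allele from a single embryonic stem cell clone, with a lacZ and neo cassette in the intron after exon 2 of Letmd1, which encodes a mitochondrial protein. All cell types of the depot lacked the gene, so the values do not belong to brown adipocytes alone. The libraries read the 3′ end of each mRNA (QuantSeq), so a count does not scale with the length of its transcript. Levels are given in CPM, counts divided by a library size scaled by edgeR's TMM method and set to a common total. Changes are log2 fold changes of Letmd1 KO against WT. They were tested by quasi-likelihood in edgeR, and p-values were adjusted over all genes tested (Benjamini-Hochberg, threshold 0.05).

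Libraries held between 6669577 and 14574273 counts, at which an absent gene could still hold up to 3 counts, or between 0.176 and 0.397 CPM. This floor covers counting error only. Letmd1 had between 5266 and 6490 counts in the WT mice and 0, 0 and 1 in the KO mice. The BAT label held in the WT mice, where Ucp1, Cidea and Cox8b had means of 6328, 4605 and 2449 CPM. The summed level of 10 brown adipocyte markers, the largest of them Fabp4 at a mean of 28020 CPM, lay between 41660 and 47620 CPM there. In the KO mice it lay between 12580 and 16250 CPM, and 9 of the 10 markers were lower. All 10 macrophage markers were higher, with summed levels between 178.4 and 250.1 CPM in WT and between 1483 and 3588 CPM in KO BAT, and all 5 fibroblast markers were higher too. Of 5 Schwann cell markers 4 were higher, of 5 endothelial markers 3 were lower, and of 5 erythroid markers none passed the threshold. Skeletal muscle markers varied from mouse to mouse, with summed levels of 8.52, 358.4 and 6.52 CPM in WT replicates 1, 2 and 3 and of 368.0, 269.8 and 1103 CPM in KO replicates 1, 2 and 3. None of these markers was at 0 in all WT mice. The part of this cell mixture in the values that follow was not tested, and fewer cells of a type cannot be told apart from less RNA per cell in whole tissue.

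Mitophagy is the removal of mitochondria by autophagy, in which a double membrane closes around the organelle and delivers it to the lysosome. PINK1 builds up on mitochondria that have lost their membrane potential and sets off the ubiquitination of their surface proteins, and adaptors such as p62 and optineurin then bind the ubiquitin chains. BNIP3, BNIP3L and FUNDC1 sit in the outer mitochondrial membrane and need no ubiquitin. Both routes end at lipid-bound ATG8 proteins, the LC3 and GABARAP families, on the growing membrane. In brown fat, mitophagy is known for clearing mitochondria when thermogenic demand falls, while new mitochondria form under cold.

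In Letmd1 KO BAT, transcripts of the adaptor Sqstm1 and of the ATG8 gene Gabarapl1 were higher, and those of Pink1, Bnip3, Map1lc3a and Map1lc3b were lower. Sqstm1 rose 3.30-fold and Gabarapl1 2.17-fold, and Pink1 fell 1.76-fold. Bnip3l, Fundc1 and Optn did not pass the threshold. Thus 2 of the 9 genes were higher, where 23.7% of all genes tested were higher, and 4 were lower, where 22.3% of all genes were lower. The 2 genotypes did not overlap for 7 of the 9 genes, against 57.3% of all genes tested. The median log2 fold change of the 9 genes was -0.24, and that of all genes tested was 0.03. The TMM factors lay between 0.852 and 0.886 in WT and between 1.13 and 1.17 in KO libraries, so leaving out these factors moves every gene by a like amount, whereas quantile normalization moves genes by unlike amounts. Quantile normalization with limma, the normalization named in the study's methods, left 3 of the 9 genes past the threshold, 2 higher and 1 lower. With it 2713 of all genes were higher and 3078 lower. With library size alone the median of all genes was 0.45, and 5899 genes were higher and 1368 lower, in place of 3082 and 2896. The calls of Sqstm1, Gabarapl1 and Pink1 held under each of 13 alternatives tried, whereas those of Bnip3, Map1lc3a and Map1lc3b did not. Asking also for a 2-fold change, which is not among the 13, left Sqstm1 and Gabarapl1 and lost Pink1.

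The proximal promoters of the 3 genes whose calls held and of Bnip3 are shown for reference to these results. Each is the 250 bases before the RefSeq transcription start on GRCm38.p6, read 5′ to 3′ on the strand of the gene, and capitals mark matches to the E-box CACGTG of TFEB and related factors, the antioxidant response element TGACNNNGC, the ATF4 element TGATGNAA, the FOXO element GTAAACA and the GC box GGGCGG on either strand. Sqstm1 lies on the minus strand of chromosome 11, and the window is chr11:50210821-50211070. Gabarapl1 lies on the plus strand of chromosome 6, with the window chr6:129532942-129533191. Pink1 lies on the minus strand of chromosome 4, with the window chr4:138326297-138326546. Bnip3 lies on the minus strand of chromosome 7, with the window chr7:138909507-138909756.
Sqstm1: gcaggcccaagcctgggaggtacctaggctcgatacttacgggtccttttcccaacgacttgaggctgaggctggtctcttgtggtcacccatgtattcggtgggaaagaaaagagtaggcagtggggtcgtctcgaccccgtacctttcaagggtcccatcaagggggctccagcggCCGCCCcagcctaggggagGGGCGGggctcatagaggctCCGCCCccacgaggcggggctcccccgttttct
Gabarapl1: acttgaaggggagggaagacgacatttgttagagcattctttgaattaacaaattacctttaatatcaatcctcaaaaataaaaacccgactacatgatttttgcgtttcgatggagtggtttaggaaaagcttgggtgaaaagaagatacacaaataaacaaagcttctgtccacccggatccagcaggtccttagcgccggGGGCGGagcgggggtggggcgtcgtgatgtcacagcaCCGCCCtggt
Pink1: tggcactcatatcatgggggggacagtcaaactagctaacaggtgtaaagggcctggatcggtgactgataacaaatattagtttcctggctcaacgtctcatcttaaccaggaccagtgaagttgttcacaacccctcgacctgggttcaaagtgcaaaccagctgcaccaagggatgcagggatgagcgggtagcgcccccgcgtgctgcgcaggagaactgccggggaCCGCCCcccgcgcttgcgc
Bnip3: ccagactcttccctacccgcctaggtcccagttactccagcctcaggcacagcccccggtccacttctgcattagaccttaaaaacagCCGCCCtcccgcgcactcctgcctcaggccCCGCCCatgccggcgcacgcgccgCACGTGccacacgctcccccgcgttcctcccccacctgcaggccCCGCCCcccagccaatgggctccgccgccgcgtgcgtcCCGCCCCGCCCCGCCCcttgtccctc

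Promoters were found in RefSeq for 7 of the 9 genes, the 4 above with Fundc1, Optn and Map1lc3b. GC boxes were in 6 of these 7 and in 32.7% of 32851 promoters of the same length. Sqstm1 had 3, Gabarapl1 had 2, Pink1 had 1 and Bnip3 had 6, some of which overlap. The E-box was in Bnip3 alone among the 7, with its first base 108 bases before the start, and in 6.02% of all promoters. The hypoxia-inducible factor core ACGTG, which was in 16.6% of all promoters, was found in Bnip3 alone, inside that E-box. None of the 7 windows held the antioxidant response element (10.2% of all promoters), the ATF4 element (3.45%) or the FOXO element (3.17%). A match here is a run of letters and no measured binding, and the absence of a match covers these windows alone.

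To ask whether the ubiquitin-dependent route was altered at the transcript level, Pink1 was compared first. It encodes the kinase that marks depolarized mitochondria. Its gene spans chr4:138313409-138326307 on GRCm38. Pink1 was at 262.1, 251.9 and 213.8 CPM in the WT mice and at 141.4, 125.2 and 147.6 CPM in the KO mice. Every KO mouse was below every WT mouse, and the means were 242.6 ± 25.4 and 138.1 ± 11.6 CPM (SD, n = 3 each). The log2 fold change was -0.81 (standard error 0.12, edgeR adjusted p = 0.00054). Under the 13 alternatives it lay between -0.91 and -0.39, with adjusted p of at most 0.0246.

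**Figure D1:**
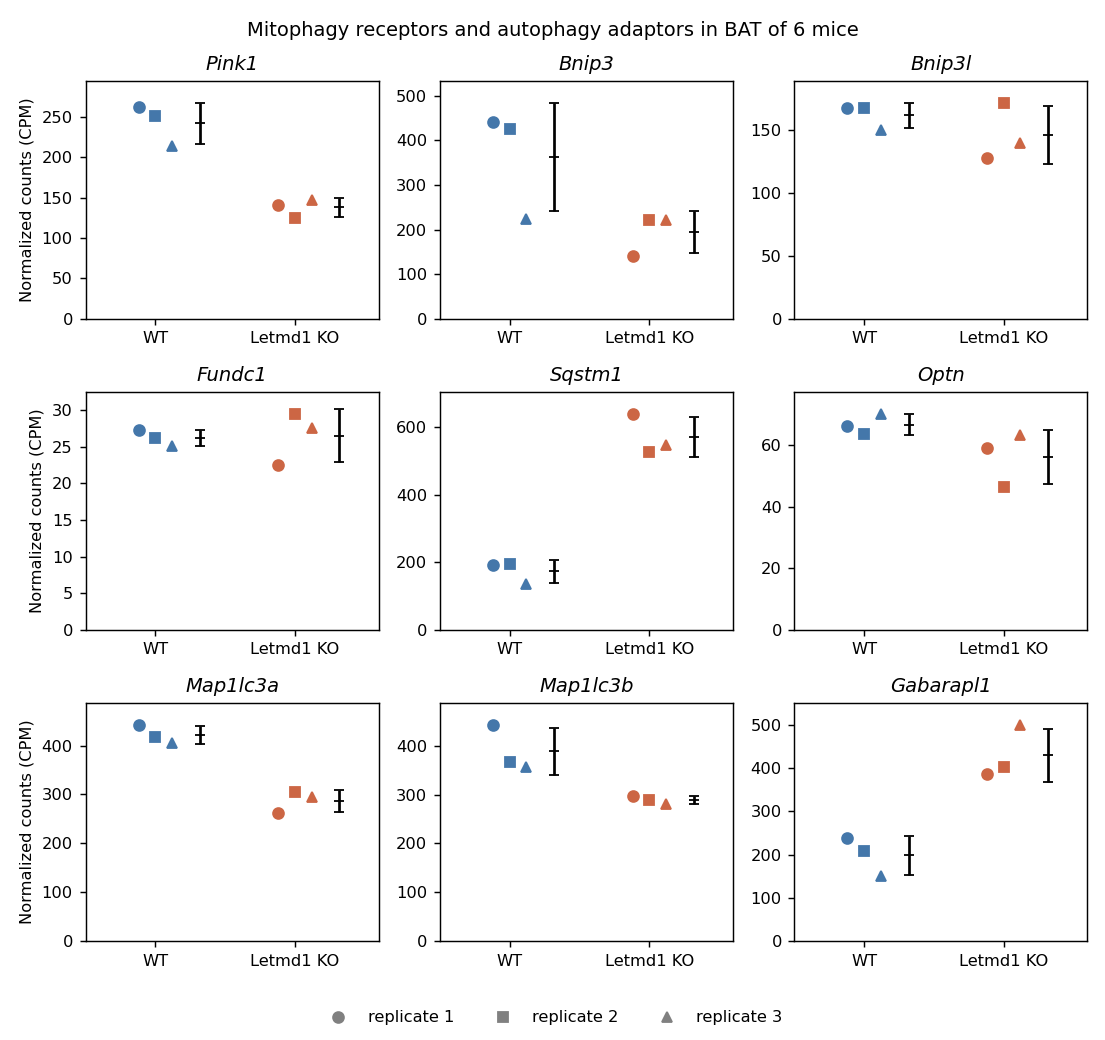
Level of each of the 9 genes in every mouse, in CPM on a linear axis that starts at 0 and differs between panels. Symbols are replicates 1 to 3 of each genotype, and bars give the mean and SD (n = 3 each). Sqstm1 and Gabarapl1 sit above the WT mice in all 3 KO mice, Pink1 sits below, and WT replicate 3 of Bnip3 lies just above KO replicate 2.

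Of the receptors of the outer membrane, Bnip3 was lower, and Bnip3l and Fundc1 did not pass the threshold. Bnip3 (chr7:138890836-138909519) encodes a BH3-domain protein that binds LC3 and is induced by hypoxia. It was at 441.2, 424.8 and 222.6 CPM in the WT mice and at 140.0, 221.9 and 220.7 CPM in the KO mice. WT replicates 1 and 2 were high, while WT replicate 3 lay less than 1 CPM above KO replicate 2. The log2 fold change was -0.90 (standard error 0.26, edgeR adjusted p = 0.0202). The call was lost with library size alone (-0.49, adjusted p = 0.142) and with quantile normalization (-0.56, adjusted p = 0.112). It was also lost without WT replicate 1 (-0.74, adjusted p = 0.0693), without WT replicate 2 (-0.79, adjusted p = 0.0620) and without KO replicate 1 (-0.71, adjusted p = 0.0782). The counts themselves are uncertain for this gene, because 63.9% of 50-base windows in the last 500 bases of its transcripts also occur in other annotated genes, most of them predicted genes, and the counting included multiple alignments.

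Bnip3l (chr14:66985239-67008877), which encodes the paralog also called NIX, was at 167.5, 167.3 and 149.9 CPM in the WT mice and at 127.4, 171.8 and 139.4 CPM in the KO mice. The genotypes overlapped, since KO replicate 2 was the highest of all 6 mice. Its log2 fold change was -0.15 (standard error 0.13, edgeR adjusted p = 0.387), and it was 0.27 with library size alone. Fundc1 (chrX:17556564-17572325), which encodes a hypoxia-responsive receptor, was at 27.3, 26.2 and 25.2 CPM in the WT mice and at 22.5, 29.5 and 27.6 CPM in the KO mice. All 3 WT values lay within the range of the KO mice (log2 fold change 0.02, standard error 0.14, edgeR adjusted p = 0.930). With library size alone Fundc1 was called higher (0.44, adjusted p = 0.0271), near the median of all genes on that scale. Within a mouse, the log2 ratio of Bnip3l to Bnip3 counts does not depend on library scaling. It was -1.40, -1.34 and -0.57 in the WT mice and -0.14, -0.37 and -0.66 in the KO mice. WT replicate 3 fell among the KO mice, and the difference of 0.71 did not pass a two-sided exact permutation test (p = 0.2, where the smallest p that 3 mice against 3 allow is 0.1).

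Of the ubiquitin-binding adaptors, Sqstm1 was higher and Optn did not pass the threshold. Sqstm1 (chr11:50199366-50210827) encodes p62, which links ubiquitinated cargo to ATG8 proteins and is itself degraded by autophagy. It had 1774, 1826 and 1033 counts in the WT mice and 5822, 3985 and 9327 in the KO mice, or 191.2, 193.6 and 134.7 against 639.8, 527.4 and 548.5 CPM. The lowest KO mouse was far above the highest WT mouse, and the means were 173.2 ± 33.3 and 571.9 ± 59.7 CPM (SD, n = 3 each). The log2 fold change was 1.72 (standard error 0.16, edgeR adjusted p = 4.14e-05), and it lay between 1.56 and 2.14 under the 13 alternatives. Summed macrophage markers were at 1719, 3588 and 1483 CPM in KO replicates 1, 2 and 3, above every WT mouse, as Sqstm1 was. Among the KO mice the orders differed, since replicate 2 had the highest sum of markers and the lowest level of Sqstm1. The part of macrophages in the level of Sqstm1 was not tested. Of the windows at the 3′ end of Sqstm1, 20.9% also lie in the oppositely oriented gene Mrnip. Whether reads were counted by strand is not given in the sources used here. Mrnip, listed under the older symbol 3010026O09Rik, had between 19 and 51 counts in any mouse. Optn (chr2:5020642-5064051) encodes optineurin, the adaptor that works with the kinase TBK1. It was at 66.2, 63.7 and 70.3 CPM in the WT mice and at 59.1, 46.5 and 63.3 CPM in the KO mice. WT replicate 2 and KO replicate 3 lay within 1 CPM of each other, and the log2 fold change of -0.24 did not pass the threshold (standard error 0.13, edgeR adjusted p = 0.172). It was 0.18 with library size alone.

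**Figure D2:**
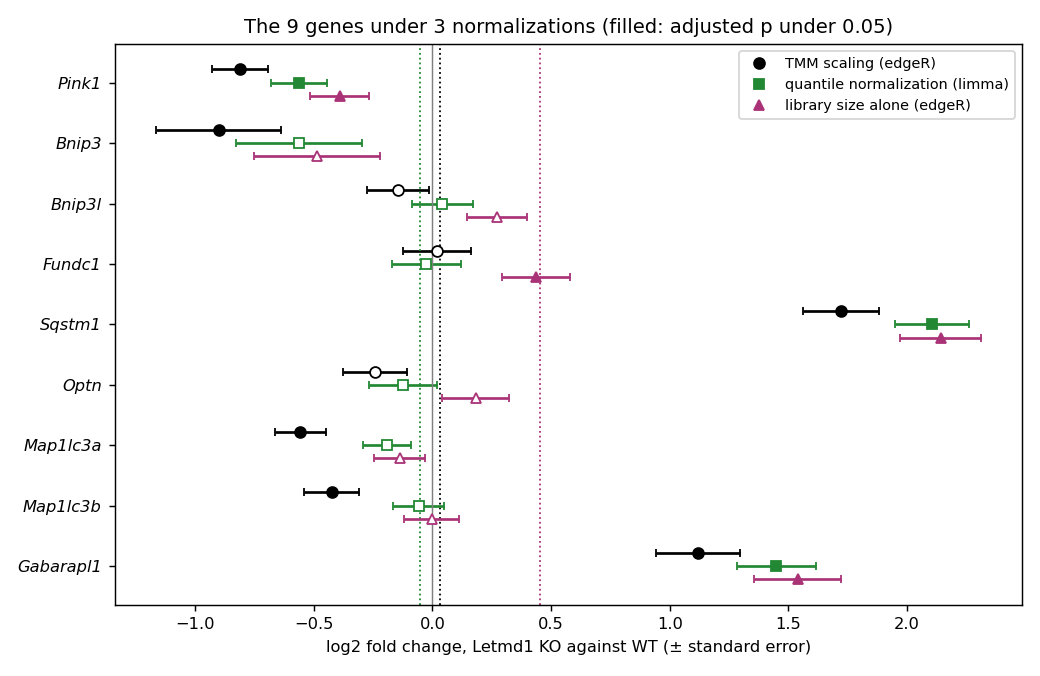
Log2 fold change of Letmd1 KO against WT (x axis) for the 9 genes under TMM scaling, quantile normalization with limma, and library size alone. Bars are standard errors, filled symbols passed an adjusted p of 0.05, and dotted lines give the median of all genes under each. Sqstm1, Gabarapl1 and Pink1 were past the threshold under all 3, whereas Map1lc3a, Map1lc3b and Bnip3 were past it with TMM alone.

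To examine the ATG8 proteins at which both routes end, the LC3 and GABARAP genes were compared. Map1lc3a (chr2:155276297-155278073) was at 442.4, 417.5 and 405.5 CPM in the WT mice and at 261.0, 305.2 and 294.0 CPM in the KO mice. The genotypes did not overlap, and the log2 fold change was -0.56 (standard error 0.11, edgeR adjusted p = 0.00263). Map1lc3b (chr8:121590361-121598760), the LC3 gene most used as an autophagosome marker, was at 442.9, 366.6 and 355.6 CPM in the WT mice and at 297.5, 289.8 and 280.4 CPM in the KO mice. These genotypes did not overlap either, and the log2 fold change was -0.43 (standard error 0.12, edgeR adjusted p = 0.0150). With library size alone the values were -0.14 for Map1lc3a (adjusted p = 0.301) and -0.0042 for Map1lc3b (adjusted p = 0.979). With quantile normalization they were -0.19 for Map1lc3a (adjusted p = 0.152) and -0.06 for Map1lc3b (adjusted p = 0.682). The call of Map1lc3b was also lost without WT replicate 1 (-0.33, adjusted p = 0.0567) and with the muscle markers as a covariate (-0.33, adjusted p = 0.217). The log2 ratio of Map1lc3b to Map1lc3a within a mouse differed by 0.14 between the genotypes, which overlapped (two-sided exact permutation p = 0.3), and by 0.0539 without KO replicate 1. Of the windows at the 3′ end of Map1lc3b, 17.5% also occur in other annotated genes.

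Gabarapl1 (chr6:129533160-129542346), whose product binds BNIP3L and many other receptors, changed in the opposite direction. It was at 237.5, 207.3 and 149.8 CPM in the WT mice and at 386.4, 404.2 and 500.7 CPM in the KO mice. Every KO mouse was above every WT mouse, with means of 198.2 ± 44.5 and 430.4 ± 61.5 CPM (SD, n = 3 each). The log2 fold change was 1.12 (standard error 0.18, edgeR adjusted p = 0.000871), and under the 13 alternatives it lay between 0.94 and 1.54. Of the windows at its 3′ end, 14.5% also lie in the antisense gene 1700101I11Rik, which had between 17 and 133 counts in any mouse. The other ATG8 genes were lower with TMM scaling, Gabarap with a log2 fold change of -0.31 (edgeR adjusted p = 0.0402) and Gabarapl2 with -0.48 (edgeR adjusted p = 0.00510). The call of Gabarap was lost in 10 of 13 alternatives and its direction turned with library size alone (0.11), while that of Gabarapl2 was lost in 2.

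The makeup of the family within a mouse does not depend on library scaling. Gabarapl1 made up 16.7, 16.1 and 12.1% of the counts of the 5 ATG8 genes in the WT mice and 32.8, 32.2 and 38.2% in the KO mice. Its mean share was 14.96 ± 2.49% in WT and 34.4 ± 3.28% in KO BAT (SD, n = 3 each), a difference of 19.5 percentage points with no overlap (two-sided exact permutation p = 0.1, the smallest that 3 mice against 3 allow). The shares of Map1lc3a (32.1 ± 0.872% to 23.0 ± 1.19%), Map1lc3b (29.4 ± 1.48% to 23.3 ± 1.95%) and Gabarapl2 (6.62 ± 0.482% to 5.01 ± 0.325%) were lower without overlap (SD, n = 3 each; exact permutation p = 0.1 for each). The share of Gabarap overlapped, at 16.9 ± 2.22% and 14.3 ± 1.36% (SD, n = 3 each, exact permutation p = 0.2). These shares sum to the whole, so a rise in one lowers the rest. The summed level of the 5 genes was 1316 ± 95.4 CPM in WT and 1247 ± 67.3 CPM in KO BAT with overlapping mice, whereas with library size alone it was 1137 ± 81.7 and 1440 ± 80.6 CPM without overlap (SD, n = 3 each).

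**Figure D3:**
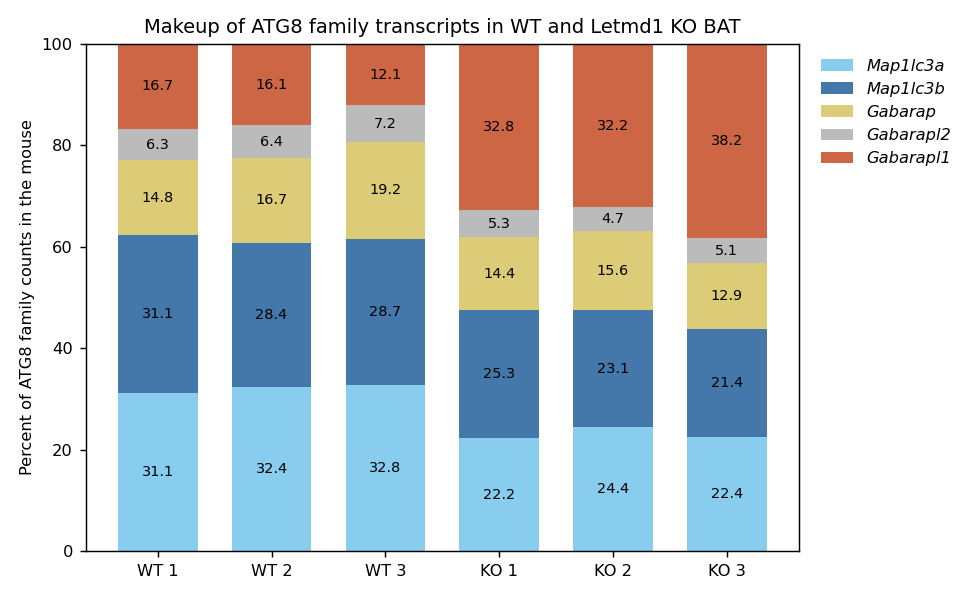
Makeup of ATG8 family transcripts in each of the 6 mice, as the percent of the summed counts of 5 genes. Gabarapl1 goes from between 12.1 and 16.7% in the WT mice to between 32.2 and 38.2% in the KO mice, and the LC3 genes take smaller shares.

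The order of the levels differed between the genotypes. Levels of different genes are set side by side here because 3′ counts do not scale with transcript length. Other differences in counting between genes remain, such as the shared 3′ windows of Bnip3, Sqstm1, Map1lc3b and Gabarapl1, and were not tested. In WT BAT the order was Map1lc3a, Map1lc3b, Bnip3, Pink1, Gabarapl1, Sqstm1 and Bnip3l, in which each gene overlapped the next, followed without overlap by Optn and Fundc1. In KO BAT Sqstm1 came first and Gabarapl1 next, each without overlap with the gene after it. Map1lc3b and Map1lc3a followed and overlapped each other, then Bnip3, Bnip3l and Pink1, each overlapping the next of the 3, and Optn and Fundc1 were again last. Sqstm1 thus moved from rank 6 to rank 1. WT replicate 3 was the lowest of the WT mice for 8 of the 9 genes, Optn being the exception, whereas 4716 of the 12995 genes tested were lowest in that mouse. Without WT replicate 3, 2 of the 9 genes were higher and 4 lower.

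The rest of the autophagy pathway was described by lists of its parts. Their counts are to be read beside all genes tested, of which 23.7% were higher and 22.3% lower. In the initiation kinase complex, which starts autophagosome formation, 2 of 5 genes were lower and none higher, with a median log2 fold change of -0.24 beside 0.03 for all genes. Ulk1, a kinase of the complex, fell most, from 101.9 ± 0.821 to 51.9 ± 7.15 CPM (SD, n = 3 each, edgeR adjusted p = 0.000216). Named after its values were seen, the paralog Ulk2 was at 49.3 ± 0.817 and 47.6 ± 5.08 CPM (SD, n = 3 each). Ulk2 did not pass the threshold (log2 fold change -0.05, edgeR adjusted p = 0.767). In the PI3-kinase complex, which makes the lipid that marks the site, 3 of 8 genes were higher and none lower (median 0.20), led by Uvrag at 15.7 ± 0.817 and 25.3 ± 1.44 CPM (SD, n = 3 each, edgeR adjusted p = 0.00290). Named after their values were seen, Pik3r4 and Rubcn (listed as 1700021K19Rik) were the others that were higher. Becn1, Pik3c3 and Atg14 were among those not past the threshold, with log2 fold changes of 0.14, -0.22 and 0.13. Among ATG9, lipid transfer and WIPI proteins, which expand the membrane, 7 of 10 were lower and 1 higher, with a median of -0.53. Wipi2, which recruits the conjugation enzymes, was at 89.4, 83.9 and 79.1 CPM in the WT mice and at 26.7, 26.2 and 27.8 CPM in the KO mice (log2 fold change -1.64, edgeR adjusted p = 9.88e-06). Vmp1, an endoplasmic reticulum lipid scramblase, was the member that rose, from 66.7 ± 4.82 to 161.5 ± 1.36 CPM (SD, n = 3 each, edgeR adjusted p = 2.00e-05). Of the machinery that attaches ATG8 and ATG12, 3 of 11 genes were lower and none higher (median -0.36), and the protease gene Atg4d fell most (log2 fold change -0.83, edgeR adjusted p = 0.00220). The call of Uvrag was lost with the muscle covariate (log2 fold change 0.66, adjusted p = 0.0560), and that of Atg4d with library size alone (-0.41, adjusted p = 0.0570). In the PI3-kinase complex 1 gene was higher when WT replicate 2, WT replicate 3, KO replicate 1 or KO replicate 3 was left out, none was higher with the muscle covariate, and 6 were higher with library size alone. In the initiation complex the median was -0.0472 without WT replicate 1 and -0.0498 with quantile normalization. With the muscle covariate 1 gene of the conjugation machinery and 3 of the ATG9, lipid transfer and WIPI proteins were lower, and with quantile normalization 5 of the conjugation machinery were lower. Scaled by library size alone, the medians of the initiation complex (0.18, with 2 genes higher and 1 lower) and the conjugation machinery (0.064, with 1 gene higher and none lower) turned positive, while that of the ATG9, lipid transfer and WIPI proteins was -0.12 with 2 genes lower and 1 higher. The calls of Ulk1, Wipi2 and Vmp1 held in all 13 alternatives.

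Of 12 other cargo receptors, 3 were lower and 1 was higher (median -0.16), where 22.3% of all genes tested were lower and 23.7% higher. Stbd1, a receptor for glycogen, went from 5.39, 4.56 and 5.74 CPM in the WT mice to 47.5, 42.3 and 60.8 CPM in the KO mice (log2 fold change 3.27, edgeR adjusted p = 5.00e-06). Fam134b, a receptor for the endoplasmic reticulum, was at 16.3, 20.2 and 45.2 CPM in the WT mice and at 5.82, 13.6 and 5.06 CPM in the KO mice. Its log2 fold change was -1.77 (edgeR adjusted p = 0.0116), and the call was lost without KO replicate 1 (adjusted p = 0.0542) and with the muscle covariate (adjusted p = 0.163). Among 22 other mitophagy receptors and regulators, 13 were lower and 1 was higher, with a median of -0.42. This list was not divided into genes that promote and genes that restrain mitophagy. Nipsnap1, which flags damaged mitochondria for adaptors, fell most, from 22.3 ± 3.91 to 7.82 ± 1.06 CPM (SD, n = 3 each, edgeR adjusted p = 0.000299). Rhot1, an outer membrane GTPase that tethers mitochondria to motors, was the gene that was higher, at 88.4 ± 9.37 and 123.3 ± 5.27 CPM (SD, n = 3 each, edgeR adjusted p = 0.00684), while with the muscle covariate its adjusted p was 0.179. Chosen after its values were seen, the paralog Rhot2 was lower, with a log2 fold change of -1.17 (edgeR adjusted p = 0.000117). Many of these genes encode mitochondrial proteins, and 9 of the 10 brown adipocyte markers were lower in the same mice. A link between these changes was not tested. In the machinery of fusion with the lysosome, 3 of 12 genes were higher and none lower (median -0.03). These 3 of 12 are near the 23.7% of all genes tested that were higher. Vps18 was highest in change (log2 fold change 0.60, edgeR adjusted p = 0.0330), and its call was lost in 6 of 13 alternatives. None of the fusion genes was higher when WT replicate 1, WT replicate 2 or KO replicate 2 was left out, with the muscle covariate or with quantile normalization, 1 was higher without KO replicate 1 or KO replicate 3, and 1 was lower without WT replicate 3 or KO replicate 2. With the muscle covariate, 1 of the cargo receptors was lower, and none of the other mitophagy genes was higher. Scaled by library size alone, the other mitophagy genes counted 8 lower and 6 higher (median 0.0055), the cargo receptors 2 lower and 5 higher (median 0.26) and the fusion machinery none lower and 7 higher (median 0.39). With quantile normalization the medians of the cargo receptors (0.0623) and the fusion machinery (0.11) were also positive. The calls of Stbd1 and Nipsnap1 held in all 13 alternatives.

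**Figure D4:**
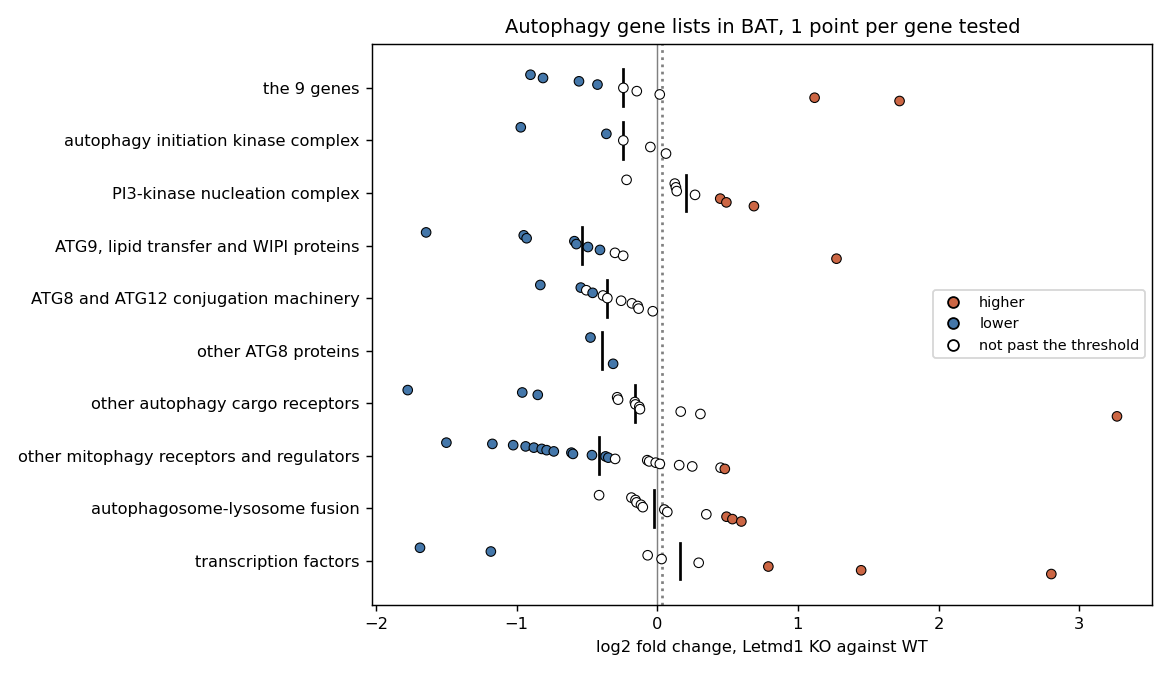
Log2 fold change of Letmd1 KO against WT (x axis) for the 9 genes and for 9 lists of other autophagy genes and their transcription factors, with 1 point per gene tested. Bars are list medians, the dotted line is the median of all genes tested (0.03), and colours mark genes past the threshold. The list of ATG9, lipid transfer and WIPI proteins has the lowest median, and Stbd1 and Ddit3 are the points farthest to the right.

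Transcription factors known to act on genes of this kind were mixed, with 3 higher and 2 lower of 8 tested, and Foxo3 had too few counts to be tested. Over all genes tested, 23.7% were higher and 22.3% lower. Ddit3, the stress factor CHOP, rose from 80.3 ± 8.40 to 560.2 ± 101.7 CPM (SD, n = 3 each, edgeR adjusted p = 4.24e-06). Foxo1, a factor known to act on autophagy genes, was at 549.4, 456.2 and 199.5 CPM in the WT mice and at 118.6, 118.6 and 136.9 CPM in the KO mice (log2 fold change -1.69, edgeR adjusted p = 0.00180). WT replicate 3 was again the lowest WT mouse, as for Bnip3 and Gabarapl1. Named after their values were seen, Atf4 (1.45) and Nfe2l2 (0.79) were the other factors that rose and Epas1 (-1.18), which encodes HIF-2α, was the other that fell, whereas Tfeb had a log2 fold change of -0.07 (edgeR adjusted p = 0.812).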

How the data were processed

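BAT RNA of 6 mice (3 WT and 3 Letmd1 KO) was prepared with Trizol and sequenced as QuantSeq libraries. Per the study's methods and the submitters' processing notes, the authors aligned reads with Bowtie2 to mm10 and counted reads on genes with bedtools, multiple alignments included; the deposited counts are whole numbers per gene without normalization. The annotation and the use of strand are not given in the sources used here. Mice were grouped by the genotype in the labels. The labels do not name litters, and p-values measure the spread between these mice.

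Counts were tested in R 4.3.3 with edgeR 4.0.16 (TMM scaling, filterByExpr at its default minimum of 10 counts and 15 in total, quasi-likelihood test, genotype as the only term, Benjamini-Hochberg adjustment, threshold 0.05). Of 23282 rows, 5588 had no counts and 12995 genes were tested. The steps were tested on simulated data. Within a genotype, mice differed by 12.1 to 36.3 chi-square per degree of freedom, so each counted as 1 sample. Two-sided exact permutation tests compared ratios and shares of counts within a mouse. Alternatives were library size alone, DESeq2 1.42.0, quantile normalization with limma 3.58.1, no filter, a mean of at least 50 counts, a replicate block, a muscle marker covariate, a 2-fold threshold and leaving out each mouse. Gene positions and 3′ windows came from GENCODE vM21 on GRCm38 and promoters from RefSeq on GRCm38.p6. Promoters of Bnip3l and Map1lc3a and protein sequences were not used here.

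The genes and all lists were chosen with earlier results of these data known. Of the set, 1 gene is not reported here, which leaves 9. Genes named are the 9, the tested gene of each list with the most positive and the most negative change past the threshold, all genes of lists with fewer than 4 genes, and Letmd1. The brown adipocyte markers given by name were chosen after their values were seen.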

Additional observations from a re-analysis of the deposited data

How the results depend on the processing

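With 3 mice a group, exact tests cannot give a p below 0.1. Of the 9 genes, 6 were past the threshold with TMM scaling, with DESeq2, with no filter, with the replicate block and with a minimum mean of 50 counts. There were 5 with the muscle covariate, 4 with library size alone and 3 with quantile normalization. Over all genes, 3082 were higher and 2896 lower with TMM scaling, and 1789 and 1764 with the muscle covariate. These counts were 5899 and 1368 with library size alone, and 2713 and 3078 with quantile normalization. Leaving out each mouse in turn gave between 4 and 6 of the 9 genes, with between 2494 and 2999 of all genes higher and between 2348 and 2869 lower. Asking also for a 2-fold change left 2 of the 9, both higher. The correlation of deviations between same-numbered mice was 0.07, -0.11 and -0.09. With 3 mice a group this check cannot show whether the replicate numbers pair the mice. With the replicate block no call of the 9 genes changed. That of Gabarap was lost (adjusted p = 0.0633, edgeR).

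Direction turned for Bnip3l with library size alone (0.27) and quantile normalization (0.0418), for Optn (0.18) and Gabarap (0.11) with library size alone, and for Fundc1 with quantile normalization (-0.0259) and within the range of -0.0609 to 0.12 without 1 mouse. Scaled by library size alone, list medians on the log2 scale were 0.18 for the initiation kinase complex, 0.064 for the conjugation machinery, 0.0262 for the other ATG8 proteins, 0.26 for the cargo receptors, 0.0055 for the other mitophagy genes and 0.39 for the fusion machinery. These lists were under the 0.45 of all genes on that scale, whereas the PI3-kinase complex (0.62) and the transcription factors (0.58) were above it. With quantile normalization the cargo receptors were at 0.0623 and the fusion machinery at 0.11 (0.0265 with the minimum mean of 50 counts, and -0.0831 to 0.0346 without 1 mouse). The cause was not tested, other than that library size alone shifts all genes. The differences in within-mouse ratios and in the share of Gabarapl1 kept their direction under each alternative run.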
